A study of Arabidopsis thaliana with 8 samples.

Results

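The loss of JMJ24 was examined in Arabidopsis thaliana seedlings that already lacked IBM1, by setting 2 arrays of a JMJ24-IBM1 double knockout against 2 arrays of an IBM1 knockout. These 4 arrays were chosen by their genotype labels, out of 8 in the series, and every probe set other than the array's own controls was compared. Few genes passed the test: 26 named genes fell and 6 rose in the double knockout, 0.195% and 0.0449% of 13350. At most of these genes the IBM1 knockout stood apart from every other genotype, and the double knockout lay close to wild type (WT). The genes that fell include a glucanase of plant defence, a floral regulator, 2 dirigent proteins, a glyoxylate cycle enzyme and 2 proteins of the late embryogenesis abundant family.

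Jumonji proteins are a family of enzymes and related proteins, several of which demethylate histones, the proteins that package DNA. IBM1 is known in Arabidopsis as the enzyme that keeps repressive histone methylation, and the non-CG DNA methylation that goes with it, out of the bodies of transcribed genes. JMJ24 is a jumonji protein that has been tied in Arabidopsis to the transcription of silenced loci and to the turnover of the DNA methyltransferase CMT3, the enzyme whose marks IBM1 counters in genes.

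The plants were accession Col-0, aged 12 days, untreated, and RNA came from their aerial parts. The other 4 arrays held 2 of WT and 2 of a JMJ24 knockout that kept IBM1, so the double knockout and the IBM1 knockout share the loss of IBM1 and differ by the loss of JMJ24. The labels name no mutant allele or line and do not say whether replicates were grown apart, so p-values measure only the spread between samples, which may be technical. Probe sets for IBM1 and JMJ24 are not named in the annotation used here, so the loss of either transcript was not checked.

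Values are log2 GCRMA values, on which a difference of 1 is a 2-fold change. Probe sets were called at an adjusted p under 0.05 from limma, fitted to all 8 arrays and adjusted over 22746 probe sets, and "rose" and "fell" are used only of called ones. Where neither array of a genotype was above its lower quartile (2.49 to 2.53), the level was taken as near background and a bound is given with the quartile in its place. The IBM1 knockout replicates correlated at 0.99 and those of the double knockout at 0.988, and the closest partner of double knockout replicate 2 was replicate 1 of the JMJ24 knockout, at 0.994. The 3′ minus 5′ signal of the GAPDH control, a measure of RNA integrity, was 0.94 and 0.46 on the double knockout arrays, 0.42 and 0.28 on the IBM1 knockout arrays and 0.18 to 0.31 on the other 4 arrays. For the actin control that signal was 4.47 and 3.42 (double knockout), 3.90 and 3.07 (IBM1 knockout) and 2.94 to 3.30 (the other 4 arrays). The labelled RNA yield was 27 and 34.2 µg in the double knockout and 24 and 16.2 µg in the IBM1 knockout. The part of RNA integrity or yield in the results was not tested. RCA, the Rubisco activase of leaves, lay between 12.81 and 12.95 on all 8 arrays. EXPA7 and EXPA18, expansins of root hairs, lay between 2.21 and 2.33, near background, and PYK10, a root beta-glucosidase, lay between 8.65 and 9.63. The 8 flower and 8 seed markers listed have no named probe set here.

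Between the double and IBM1 knockouts 55 probe sets were called, 0.242% of those tested. The 47 that fell were 0.207% of the probe sets and the 8 that rose 0.0352%. At an unadjusted p under 0.05 there were 1419 lower and 1109 higher probe sets. Of the 55 called, 32 have 1 gene name each, 0.24% of the named genes, 2 have several and 21 are unnamed here. The size of the called differences ran from 0.402 to 3.36. The arrays of the double and IBM1 knockouts did not overlap at any of the 55, as they did not at 31% of all tested probe sets. These calls rest on the full set of arrays: without either WT array or either double knockout array none was made, without either JMJ24 knockout array there were 3, without IBM1 knockout replicate 1 there were 161 and without IBM1 knockout replicate 2 there were 48. Most probe sets called without either IBM1 knockout replicate were not among the 55, and many of the 55 were then lost. A limma fit to the 4 arrays alone called none. Each of the settings with no call left between 2011 and 3584 probe sets at an unadjusted p under 0.05.

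**Figure D1:**
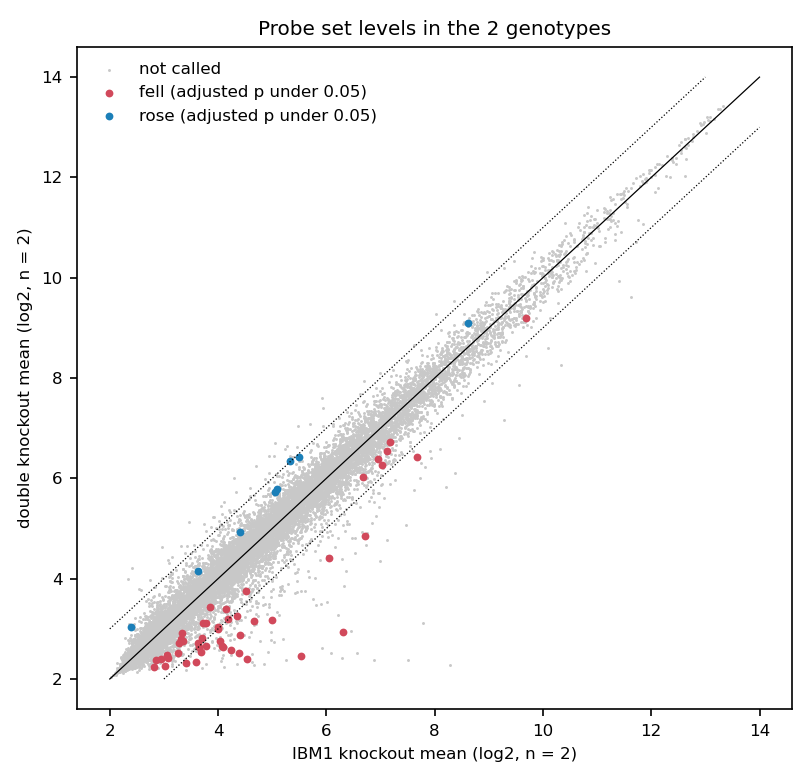
Mean log2 level of each probe set for the IBM1 knockout (horizontal) against the double knockout (vertical), 2 arrays each; the solid line marks equal levels and the dotted lines a difference of 1. Most of the 47 falls (red) lie below a level of 5 in the double knockout, and the 8 rises (blue) lie within or just past the upper dotted line.

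Among defence genes, AT4G16260, of the beta-1,3-glucanase family that cuts callose and fungal walls, showed the largest fall of a named gene. Its log2 level was 4.51 and 4.57 on the IBM1 knockout arrays, 2.35 and 2.45 on the double knockout arrays, 2.31 and 2.34 in WT and 2.47 and 2.31 on the JMJ24 knockout arrays. Only the IBM1 knockout arrays stood above background. The difference was −2.14 (SE 0.0706, 2 arrays a genotype, adjusted p = 0.00538, limma), and −2.03 as a bound. PDF1.2b, an antifungal defensin, was at 3.74 and 3.82 on the IBM1 knockout arrays and at 3.09 and 3.13 on the double knockout arrays, beside 3.01 to 3.09 on the 4 arrays with IBM1. Its fall of −0.67 (SE 0.0447, adjusted p = 0.0266) rests on a probe set whose probes may also match related defensins. AT3G13610, also known as F6'H1, the hydroxylase that commits phenylpropanoids to the coumarin scopoletin, was at 2.82 and 2.83 on the IBM1 knockout arrays and at 2.22 and 2.26, near background, in the double knockout. Its difference was −0.58 (adjusted p = 0.0179), and −0.31 as a bound. AT4G09420, of the TIR-NBS class of resistance proteins, read 3.05 on both IBM1 knockout arrays against 2.43 and 2.53 on the double knockout arrays, a difference of −0.57 (adjusted p = 0.0414). BGLU15, a beta-glucosidase, is listed here with beta-glucosidases and lectins and not as a defence gene. It was at 4.22 and 4.15 on the IBM1 knockout arrays and at 3.14 and 3.25 on the double knockout arrays. WT read 3.15 and 3.13, and BGLU15 differed by −0.99 between the double and IBM1 knockouts (SE 0.0741, adjusted p = 0.028). At each of these genes the double knockout arrays lay within the range of WT and the JMJ24 knockout or within 0.1 of it.

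Members of families that act on the cell wall and its phenolic polymers were also among the falls. AT3G15720, of the pectin lyase-like family, read 4.54 and 4.24 on the IBM1 knockout arrays and 2.52 and 2.51 on the double knockout arrays, with WT at 2.49 and 2.46 and the JMJ24 knockout at 2.91 and 2.43. The fall was −1.88 (SE 0.176, adjusted p = 0.0442). A pair of dirigent proteins, a family that steers the coupling of phenolic radicals, also fell. AT3G13650 was at 4.32 and 4.49 on the IBM1 knockout arrays, 2.86 and 2.91 on the double knockout arrays and 2.77 and 2.84 in WT, a difference of −1.52 (SE 0.0894, adjusted p = 0.0179). AT1G55210 was well expressed everywhere, at 7.51 and 7.83 on the IBM1 knockout arrays, 6.41 and 6.46 on the double knockout arrays and 6.24 and 6.32 in WT, and fell by 1.24 (SE 0.112, adjusted p = 0.0414). At this gene the double knockout kept a level just above all 4 arrays with IBM1. AT1G18980, a germin-like protein, differed by −0.74 (adjusted p = 0.028).

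In carbon metabolism, ICL, isocitrate lyase of the glyoxylate cycle by which oil-storing seedlings turn fat into sugar, read 3.34 and 3.49 on the IBM1 knockout arrays and 2.33 and 2.31 on the double knockout arrays. All other arrays lay between 2.32 and 2.35, so the IBM1 knockout alone was above background, and the difference was −1.09 (SE 0.0554, adjusted p = 0.0138), or −0.90 as a bound. AT1G20950, the alpha subunit of a pyrophosphate-dependent phosphofructokinase in glycolysis, was at 7.10 and 7.13 on the IBM1 knockout arrays, 6.58 and 6.51 on the double knockout arrays and 6.39 and 6.35 in WT. It fell by 0.57 (adjusted p = 0.0377).

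ATC, an Arabidopsis homologue of CENTRORADIALIS, belongs to the family of FT and TFL1 and holds back flowering. It read 4.18 and 4.28 on the IBM1 knockout arrays, 2.60 and 2.54 on the double knockout arrays, 2.48 and 2.46 in WT and 2.55 and 2.49 on the JMJ24 knockout arrays. The IBM1 knockout was the only genotype clearly above background, and the difference was −1.67 (SE 0.0505, adjusted p = 0.00538). Late embryogenesis abundant proteins accumulate in drying seeds and under water stress. One of them, AT3G02480, was at 5.99 and 6.11 on the IBM1 knockout arrays, 4.37 and 4.44 on the double knockout arrays, 4.41 and 4.29 in WT and 4.61 and 4.91 on the JMJ24 knockout arrays, and fell by 1.64 (SE 0.115, adjusted p = 0.0277). LEA18 was at 3.32 and 3.38 on the IBM1 knockout arrays and 2.81 and 2.70 on the double knockout arrays, against 2.80 on both WT arrays, a difference of −0.59 (adjusted p = 0.0377).

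At some calls the arrays separated by the presence of JMJ24. At 6 of the 47 falls, and at 1 of the 8 rises, the 4 arrays without JMJ24 lay apart from the 4 with it. The share of all tested probe sets that separated this way is not given here. The double and IBM1 knockout arrays did not overlap at any call, so part of this separation follows from the choice of calls. AT2G46910, of the plastid fibrillin family of lipid-associated proteins, read 4.85 on both double knockout arrays, 6.72 on both IBM1 knockout arrays, 4.89 and 5.18 on the JMJ24 knockout arrays and 7.2 and 7.14 in WT. Both backgrounds showed a fall, of −1.87 (SE 0.0967, adjusted p = 0.0138) with IBM1 lost and −2.13 (adjusted p = 0.0278) with IBM1 present. AT4G38020, of the SpoU family of RNA methyltransferases, was at 3.71 and 3.79 on the double knockout arrays, 4.54 and 4.48 on the IBM1 knockout arrays, 3.79 and 3.83 on the JMJ24 knockout arrays and 4.71 and 4.62 in WT. It fell by 0.76 (SE 0.0539, adjusted p = 0.0277) with IBM1 lost, while its difference with IBM1 present, −0.86, did not pass (adjusted p = 0.0989). AT5G47550, a cystatin that inhibits cysteine proteases, was at 6.24 and 6.28 on the double knockout arrays, 7.09 and 6.98 on the IBM1 knockout arrays, 6.34 on both JMJ24 knockout arrays and 6.67 and 6.68 in WT. The fall was −0.77 (adjusted p = 0.0182) with IBM1 lost, and the difference was −0.34 (adjusted p = 0.543) with IBM1 present. AT5G38030, of the MATE family of efflux carriers, also had both genotypes without JMJ24 below WT and the IBM1 knockout above it, with 2.72 and 2.71 on the double knockout arrays, 3.72 and 3.53 on the IBM1 knockout arrays, 2.68 and 2.67 on the JMJ24 knockout arrays and 2.91 and 2.79 in WT, and a fall of −0.91 (adjusted p = 0.0377). The 2 further falls of this kind carry no single gene name. One of them went from 5.78 and 5.27 on the IBM1 knockout arrays to 2.48 and 2.44, near background, in the double knockout (−3.06, adjusted p = 0.0146), and from 6.17 and 6.09 in WT to 2.25 and 2.28 on the JMJ24 knockout arrays (−3.87, adjusted p = 0.0278).

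The other named falls, for which no role is given here beyond AT5G17760, an AAA-type ATPase, ran from −1.82 to −0.43. AT3G15650 fell by 1.82 (SE 0.0886, adjusted p = 0.0133), from 5.13 and 4.87 on the IBM1 knockout arrays to 3.15 and 3.20 on the double knockout arrays, where WT read 3.06 and 3.03. AT5G10580 fell by 1.15 (SE 0.0433, adjusted p = 0.00719), from 3.67 and 3.70 to 2.57 and 2.50. AT5G39520 fell by 1.10 (adjusted p = 0.0128), and AT3G17050 fell by 1.01 (adjusted p = 0.0389). AT5G17760 read 3.97 and 4.03 on the IBM1 knockout arrays and 3.04 and 3.03 on the double knockout arrays (−0.96, adjusted p = 0.0266). The smallest were AT1G30160 at −0.66 (−0.56 as a bound), AT4G01920 at −0.51 and AT1G64405 at −0.43. In all of these the IBM1 knockout arrays were above the 6 arrays of the other genotypes.

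At 5 of the 6 named rises the IBM1 knockout lay clearly below every other array. AT4G17245, of the RING-type family to which many ubiquitin ligases belong, read 5.25 and 5.4 on the IBM1 knockout arrays, 6.34 and 6.37 on the double knockout arrays, 6.31 and 6.53 in WT and 6.37 and 6.41 on the JMJ24 knockout arrays. It rose by 1.03 (SE 0.0904, adjusted p = 0.0397). A second RING-type gene, AT2G45530, was at 4.39 and 4.43 on the IBM1 knockout arrays and 4.95 and 4.91 on the double knockout arrays (0.52, adjusted p = 0.0442), still below the 5.07 to 5.17 of the arrays with IBM1. AT4G28260 rose by 0.95 (SE 0.0778, adjusted p = 0.0361), from 5.55 and 5.43 to 6.44 and 6.43, where WT read 6.41 and 6.45, and AT5G13760 rose by 0.53 (adjusted p = 0.0344). AT2G25250 rose by 0.66 (adjusted p = 0.0376), from 5.05 and 5.06 to 5.73 and 5.71. The WT arrays lay between, at 5.34 and 5.42, and the JMJ24 knockout was as high as the double knockout, at 5.71 and 5.83. UGT73C1, a glycosyltransferase that can attach glucose to the hormone cytokinin, was the exception. The double knockout alone, at 3.05 and 3.0, was above background, and the other 6 arrays lay between 2.39 and 2.47. Its rise was 0.63 (SE 0.0406, adjusted p = 0.0238), or 0.52 as a bound.

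**Figure D2:**
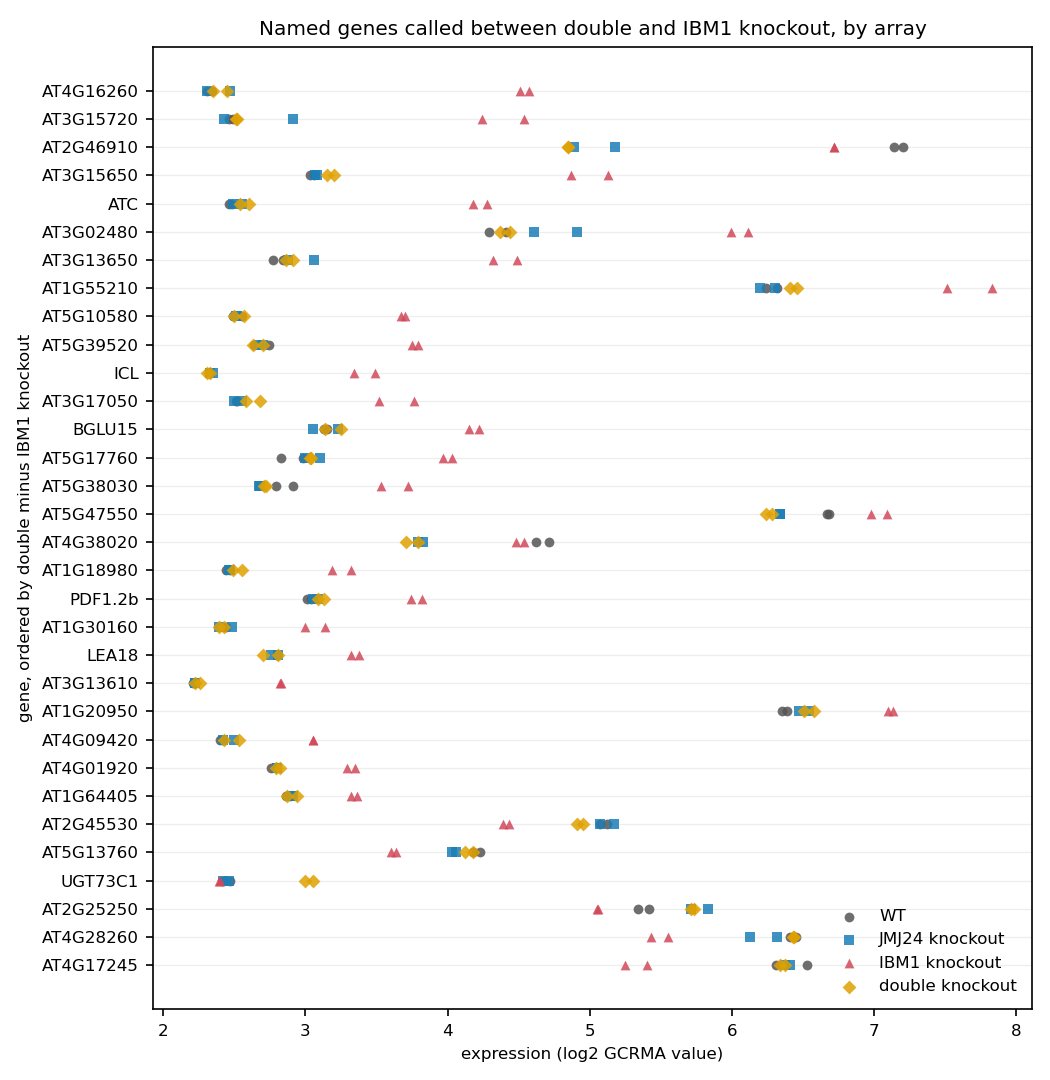
Log2 level of each of the 32 named called genes (rows) on the 8 arrays, 1 point per array, coloured by genotype. In most rows the IBM1 knockout triangles stand alone and the double knockout diamonds lie on WT; AT2G46910 and AT4G38020 show the JMJ24 knockout and the double knockout together, and UGT73C1 the double knockout alone.

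Over all calls, the WT mean was nearer to the double knockout than to the IBM1 knockout at 42 of 47 falls and 6 of 8 rises. Over all tested probe sets it was nearer to the double knockout at 62.2%. At 47 of the 55, WT and the double knockout differed by less than 0.25, a share that is not given here for all tested probe sets. The IBM1 knockout arrays were above all 6 other arrays at 43 of the 47 falls, against 8.76% of all tested probe sets. They were below all 6 at the 8 rises, against 1799 of the 22746 tested probe sets. A high IBM1 knockout value enters both the call and these counts, so they describe the called genes and are no separate evidence.

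The same loss of JMJ24 was read with IBM1 present, as the JMJ24 knockout minus WT, which shares no array with the comparison above. Of all probe sets, 2 were called there, 0.00879%. At the 55 probe sets the median size of the difference was 0.0365 with IBM1 present, beside 0.775 with IBM1 lost, the contrast that chose them, and 48 of the 55 differed by less than 0.25 with IBM1 present. The same values over all tested probe sets are not given here, so small differences with IBM1 present are not shown to be particular to the calls. The difference between the backgrounds was tested as an interaction, in which 3 probe sets, 0.0132%, were called, and 1756 had an unadjusted p under 0.05. The 3 were AT4G16260 at −2.21 (adjusted p = 0.0274), ATC at −1.71 (adjusted p = 0.0274) and AT5G10580 at −1.14 (adjusted p = 0.0444). In each, the double knockout was below the IBM1 knockout, and the JMJ24 knockout differed from WT by 0.07, 0.05 and −0.01 in that order. For AT2G46910 the interaction was 0.27 (adjusted p = 0.781) and for AT4G38020 it was 0.10 (adjusted p = 0.944). No interaction call was made when 1 array of WT, of the JMJ24 knockout or of the double knockout was left out, while 68 and 12 were made without IBM1 knockout replicates 1 and 2.

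**Figure D3:**
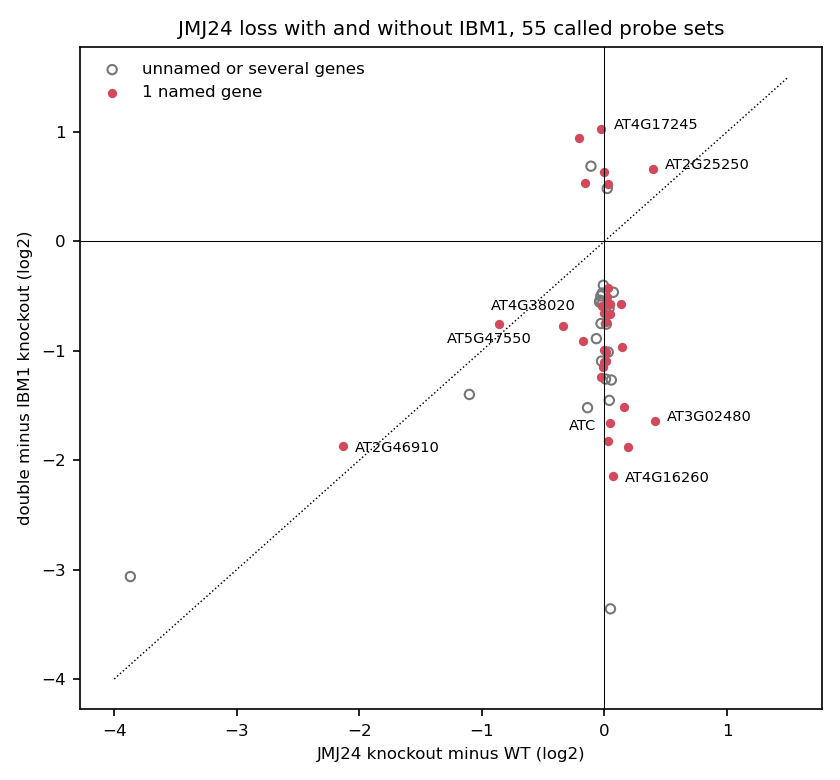
Difference between arrays without and with JMJ24, with IBM1 present (horizontal, JMJ24 knockout minus WT) and with IBM1 lost (vertical, double minus IBM1 knockout) for the 55 called probe sets, log2. Most points lie on the vertical line at 0; AT2G46910 and AT4G38020 lie near the dotted line of equal differences.

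Read by function, 42 gene lists held 300 measured genes with a name, of which 8 were called, all but UGT73C1 falling, and 20 lists had at least 3 measured members and 12 had none. Over all 13350 named genes the median difference was 0.01, 0.195% fell, 0.0449% rose, and 0.861% were lower and 0.262% higher by at least 1. The lists were written with earlier results of these data known, so their counts and ranks are description and no separate evidence. The list of chitinases and glucanases, enzymes that attack fungal walls, had the lowest median of these 20. All 4 measured members were lower in the double knockout, 1 fell, 3 were lower by at least 1, and the median was −2.0, between −2.28 and −1.56 as single arrays were left out. CHI, a chitinase, read 5.43 and 4.82 on the IBM1 knockout arrays and 2.76 and 3.78 on the double knockout arrays (−1.85, adjusted p = 0.321). ChiC, a class V chitinase, read 5.58 and 5.67 against 4.07 and 5.29 (−0.94, adjusted p = 0.605). AT4G16240, on the list by its locus and not known here to be such an enzyme, differed by −2.20 (adjusted p = 0.12) on a probe set that may match other transcripts. Besides AT4G16260, none passed the test, and at CHI and ChiC the double knockout arrays were further apart than the IBM1 knockout arrays.

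The 3 measured anthocyanin genes were each lower by at least 1, and none passed the test, with a median of −1.31. DFR, dihydroflavonol reductase, read 7.63 and 8.24 on the IBM1 knockout arrays and 5.52 and 7.28 on the double knockout arrays (−1.54, adjusted p = 0.434). UF3GT, which adds a sugar to anthocyanins, read 5.62 and 5.63 against 4.07 and 5.09 (−1.04, adjusted p = 0.35). AT4G14090, a glucosyltransferase of the same pathway, read 5.57 and 5.33 against 3.62 and 4.65 (−1.31, adjusted p = 0.384). The double knockout arrays were all below the IBM1 knockout arrays, but replicate 2 lay between the IBM1 knockout and replicate 1 in each case, and WT lay between 3.54 and 6.40. Leaving out 1 array moved the list's median between −1.83 and −0.66.

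Of 3 jasmonate and wound genes 1 fell, PDF1.2b, and the median was −0.67. PDF1.2, a related defensin, read 4.07 and 3.28 on the IBM1 knockout arrays and 2.99 and 4.03 on the double knockout arrays. Its arrays overlapped, and the difference of −0.16 was not called. THI2.1, an antimicrobial thionin, read 4.29 and 6.11 on the IBM1 knockout arrays and 2.52 and 3.06 on the double knockout arrays (−2.40, adjusted p = 0.248), with WT and the JMJ24 knockout between 2.49 and 2.57. The wider defensin and thionin list of 28 genes was drawn partly by words and prefixes in gene names. It also holds unrelated genes, such as the methionine aminopeptidase MAP1B and the methionine sulfoxide reductase MSRB9. Its counts and median therefore do not describe the defensin and thionin families alone. The list had 1 fall, the same PDF1.2b, and a median of −0.14, between −0.20 and −0.03 as single arrays were left out. Its 3 members lower by at least 1 were THI2.1, MSRB9 (−1.43) and MAP1B (−1.11), and the 1 higher was the thionin THI2.2 (1.16). PDF1.4 differed by −0.99 (adjusted p = 0.125) and PDF2.1 by −0.90 (adjusted p = 0.313). Of 10 cold, abscisic acid and LEA genes, LEA18 fell and the median was −0.33. AT2G46140, also LEA27, differed by −1.22 (adjusted p = 0.109), from 4.53 and 4.26 to 2.97 and 3.37. COR15A, a chloroplast protein of cold acclimation, read 8.35 and 7.97 on the IBM1 knockout arrays, 7.19 and 7.16 on the double knockout arrays and 8.20 and 7.49 in WT (−0.98, adjusted p = 0.276). AT1G54410, a dehydrin, differed by 0.31 (adjusted p = 0.252). The 4 members of the list by lowest p thus lay on both sides of 0.

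The cell wall lists held differences in both directions and no call. Of 4 pectin genes none was called and the median was −0.42, between −0.71 and −0.13 as single arrays were left out. ATPMEPCRB, a pectin methylesterase, read 6.57 and 6.92 on the IBM1 knockout arrays, 4.11 and 5.71 on the double knockout arrays, 3.69 and 3.90 in WT and 6.21 and 4.02 on the JMJ24 knockout arrays (−1.84, adjusted p = 0.545). PMEPCRF differed by −0.85 (adjusted p = 0.56) and PME61 by 0.65 (adjusted p = 0.352). Among 29 genes of wall expansion none was called and the median was −0.04. EXPA4 differed by −0.72 (adjusted p = 0.204), EXPA15 by −0.49 (adjusted p = 0.193) and XTH32, a xyloglucan endotransglucosylase, by −0.62 (adjusted p = 0.305). EXPA8 was higher by 1.46 (adjusted p = 0.447), from 6.56 and 5.33 on the IBM1 knockout arrays to 7.99 and 6.82, with WT at 7.90 and 7.49.

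The metabolic and regulatory lists had medians near that of all genes. Of 27 beta-glucosidases and lectins 1 fell, BGLU15, and the median was −0.06, between −0.13 and 0.02 as single arrays were left out. BGLU19 read 3.51 and 4.52 on the IBM1 knockout arrays and 2.55 and 2.62 on the double knockout arrays (−1.43, adjusted p = 0.223), and BGLU25 differed by −0.79 (adjusted p = 0.457). Of 52 glycosyltransferases 1 rose, UGT73C1, and the median was 0.01. UGT72E2, which glucosylates monolignols, differed by −1.31 (adjusted p = 0.149), GT72B1 by −0.54 (adjusted p = 0.247) and UGT71C4 by 0.65 (adjusted p = 0.33). None was called of 24 cytochromes P450, 13 glutathione transferases, 29 serine carboxypeptidases, 7 WRKY, 22 bZIP and 12 auxin response genes, with medians between −0.01 and 0.02. In the P450 list CYP71B22 was higher by 1.23 (adjusted p = 0.251), from 2.96 and 2.53 to 3.65 and 4.31. CYP71B23 differed by −0.49 (adjusted p = 0.223), CYP71B6 by −0.59 (adjusted p = 0.341) and CYP71B36 by −0.59 (adjusted p = 0.356). Of 5 flowering genes 1 fell, ATC, and the median was 0.02, between −0.18 and 0.22 as single arrays were left out. The other 4 differed by −0.06 to 0.11.

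The chromatin and photosynthesis lists held no call. Among 9 histone demethylases of the jumonji and LSD1 families the median was −0.04, between −0.05 and 0.10 as single arrays were left out, and the members ranged from −0.41 to 0.30. PKDM7D, a jumonji demethylase, read 4.34 and 4.31 on the double knockout arrays, 4.75 and 4.48 on the IBM1 knockout arrays, 4.38 and 4.47 on the JMJ24 knockout arrays and 4.80 and 4.67 in WT (−0.29, adjusted p = 0.399). AT1G62310 differed by 0.30 (adjusted p = 0.563), AT1G78280 by 0.26 (adjusted p = 0.605) and AT5G19840 by −0.41 (adjusted p = 0.221). Of 5 histone genes none was called, with a median of 0.29 that lay between 0.00 and 0.14 as single arrays of the 4 compared were left out, and HON4, a linker histone-like protein, differed by 0.45 (adjusted p = 0.534). Of 5 light harvesting and photosystem genes none was called, with a median of 0.01, and LHCB4.2 read 12.59 to 12.79 on the 4 arrays compared. Further lists had fewer than 3 named members measured: 2 each for salicylic acid and systemic defence, DNA methylation and silencing, glucosinolate and heat shock genes, and 1 each for plastid fibrillin, glyoxylate and senescence, NAC, F-box and transposon-like genes.

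**Figure D4:**
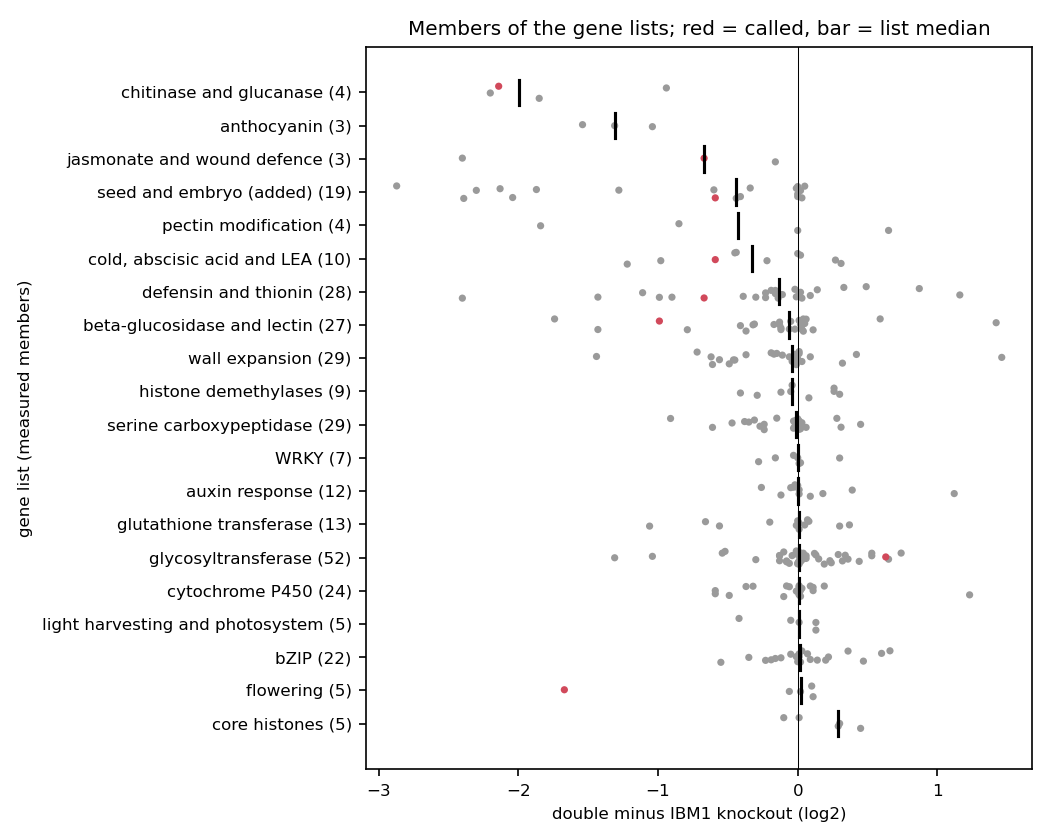
Difference between double and IBM1 knockout (log2) for each measured member of the lists with at least 3, with the list median as a bar and called genes in red. The chitinase and glucanase and the anthocyanin lists lie furthest below 0, and most lists centre on it.

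Size and significance picked different genes. A difference of at least 1 with no overlap between arrays was found at 1.21% of probe sets, lower at 211 probe sets, 0.928%, and higher at 64, 0.281%, of which 21 and 1 were called. The IBM1 knockout replicates differed by 0.338 and the double knockout replicates by 0.624 at the median over the lower ones that were not called, and by 0.059 and 0.0566 over the called ones, a spread that enters the test. The 5 largest named differences below 0 that were not called and did not overlap were AT2G28490, AT2G43620, AT1G47540, AT2G04460 and AT1G65500. AT2G43620, of the chitinase family, read 7.28 and 6.72 on the IBM1 knockout arrays, 3.06 and 5.62 on the double knockout arrays, 2.68 and 3.06 in WT and 5.52 and 3.14 on the JMJ24 knockout arrays (−2.65, adjusted p = 0.476). AT2G04460, annotated as a pseudogene, read 6.73 and 5.93, then 2.86 and 4.83, with 2.89 and 2.87 in WT and 3.98 and 2.84 on the JMJ24 knockout arrays (−2.48, adjusted p = 0.321). AT1G65500 read 6.01 and 6.0, then 2.33 and 4.74, with 3.16 and 2.36 in WT and 3.94 and 3.0 on the JMJ24 knockout arrays (−2.47, adjusted p = 0.379). At these genes, as at CHI and ATPMEPCRB, double knockout replicate 2 was well above replicate 1 and JMJ24 knockout replicate 1 well above its replicate 2, the pair that correlated at 0.994. Leaving those arrays out together, a setting chosen after seeing the data, leaves 1 array in each of their genotypes. It cannot show the part of this pair in the calls, which was not tested.

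Of the 5 largest named differences above 0 that were not called, AT3G13270, annotated as a pseudogene, came closest to the threshold. It read 4.35 and 4.08 on the double knockout arrays and 2.46 and 2.38, near background, in the IBM1 knockout, beside 4.53 and 4.11 on the JMJ24 knockout arrays and 2.47 and 2.80 in WT. The difference was 1.80 (SE 0.19, adjusted p = 0.061) with IBM1 lost and 1.69 (adjusted p = 0.342) with IBM1 present, and all 4 arrays without JMJ24 were above all 4 with it. AT2G47880, of the glutaredoxin family, was higher by 1.67 (adjusted p = 0.532), from 3.36 and 2.58 to 5.41 and 3.87. AT5G17340 was higher by 1.65 (adjusted p = 0.604), with WT at 4.54 and 2.32, and AT5G62280 by 1.49 (adjusted p = 0.384), with EXPA8 as the fifth.

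Several seed storage and oil body genes were high on 1 of the 4 arrays compared. IBM1 knockout replicate 2 had 52 probe sets at least 1 above every other array, while each other array had between 0 and 5. Their median was 5.47 on that array, 3.14 on IBM1 knockout replicate 1 and 2.49 on the 6 others. Since they were picked for standing above all other arrays, the replicate included, these medians and the absence of calls among them follow from the choice. IBM1 knockout replicate 1 was also above the 6 other arrays at 36 of them. AT2G28490, of the cupin family of seed storage proteins, read 3.60 and 6.90 on the IBM1 knockout arrays and 2.36 to 2.40 elsewhere (−2.87, adjusted p = 0.4). OLEO3, an oleosin that coats seed oil bodies, read 3.43 and 5.82, and 2.32 to 2.37 elsewhere (−2.30, adjusted p = 0.356). PAP85, a vicilin-like storage protein, read 2.84 and 5.39, and 2.23 to 2.26 elsewhere (−1.87, adjusted p = 0.486). AT3G01570, another oleosin, differed by −2.39 (adjusted p = 0.486), AT4G36700, another cupin, by −2.04 (adjusted p = 0.506) and M17, a late embryogenesis protein, by −2.13 (adjusted p = 0.235). AT1G03890, a cruciferin-type storage protein, was at 4.91 on IBM1 knockout replicate 2 and at 2.29 on replicate 1, no higher than elsewhere. AT1G47540 followed the same array, at 2.68 and 7.02 and at 2.29 to 2.30 elsewhere (−2.55, adjusted p = 0.613).

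A list of 42 seed and embryo genes, put together after these values were seen and so given without a test, had 19 measured members. Of these 1 fell, LEA18, none rose and 7 were lower by at least 1, with a median of −0.44 that ran from −0.69 to 0.00 as single arrays were left out. Its summed linear level was 146 and 526 on the IBM1 knockout arrays, 118 and 109 on the double knockout arrays, 115 and 111 in WT and 112 and 115 on the JMJ24 knockout arrays. OLEO3, PAP85 and the cupins were near background on all arrays outside the IBM1 knockout. Other listed genes were not raised on the IBM1 knockout arrays, such as AT3G18570 at 2.18 and 2.21 and AT2G25890 at 2.30 and 2.34. In bulk tissue, fewer cells of a type and less RNA per cell cannot be told apart. The part of seed-type RNA in the falls of ICL, AT3G02480 and LEA18 was not tested. Without IBM1 knockout replicate 2 the differences were −1.02 for ICL (adjusted p = 0.0172), −1.58 for AT3G02480 (adjusted p = 0.0898) and −0.56 for LEA18 (adjusted p = 0.103).

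**Figure D5:**
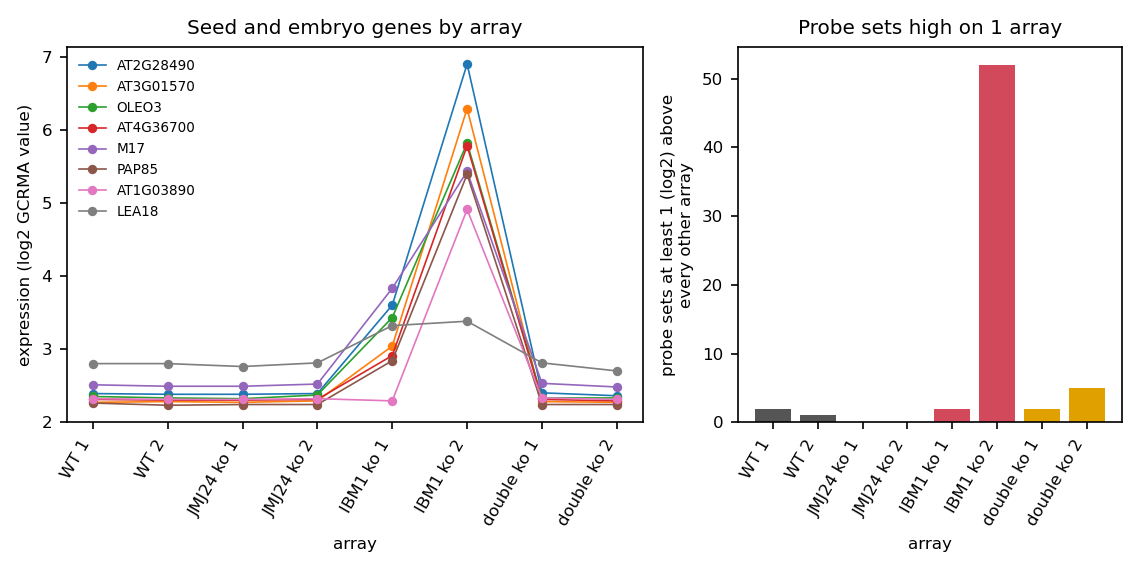
Left, log2 level of 8 of the 19 measured seed and embryo genes on the 8 arrays (ko, knockout). Right, the number of probe sets on each array at least 1 above every other array. IBM1 knockout replicate 2 carries 52 such probe sets and the highest levels of the genes drawn, while LEA18 is about equal on both IBM1 knockout arrays.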

How the data were processed

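Labelled RNA from 8 samples was hybridised to 8 Affymetrix ATH1 arrays. The authors' deposited values are log2 values, 1 per probe set and array. GCRMA is named in the submitters' processing notes; no version of it is named there. It corrects background, quantile normalises and summarises probes. Of 22810 probe sets, 64 controls were left out. Platform annotation named 1 gene for 13513, several for 503 and none for 8730; symbols were updated through the TAIR10.1 gene table, which matched 13436. For lists, the probe set with the highest mean stood for a gene (13350 genes).

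limma 3.58.1 in R 4.3.3 (lmFit, eBayes) was fitted to all 8 arrays with 1 mean per genotype, 2 arrays each, and Benjamini-Hochberg adjustment over 22746 probe sets. It had 4 residual degrees of freedom and a prior worth 1.2. The method was tested on simulated data. The number of arrays limits the precision. Groups came from the labels. Genes were named by rule: all named rises, the 20 largest named falls, up to 4 members per list by lowest p, the 5 largest uncalled differences each way, and interaction calls. Not every list member that this rule allows is named in the text. LEA18, AT3G13610, AT4G09420, AT1G20950, AT4G01920, AT1G64405, MSRB9, MAP1B, THI2.2 and the seed genes were added after their values were seen. The comparison, lists and rules were chosen with earlier results of these data known. Replicate numbers are shared between genotypes and were not used as pairs in this fit. Deviations of arrays with the same number correlated from −0.31 to 0.208, and at 0.156 between the IBM1 and double knockouts. Such correlations cannot show that arrays shared no batch, and the labels name none. Promoter motifs were not analysed here.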

Additional observations from a re-analysis of the deposited data

Results flagged for a closer look

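The difference between arrays without and with JMJ24 was itself different with IBM1 lost and with IBM1 present, by the interaction test on all 8 arrays, at AT4G16260 (−2.21), ATC (−1.71) and AT5G10580 (−1.14), all on the log2 scale. No interaction was called when any 1 array of WT, the JMJ24 knockout or the double knockout was left out, or after quantile normalization on top. The 5S ribosomal RNA control of the array, which is outside the comparison, read 3.8 and 3.57 in the IBM1 knockout and 2.65 to 2.73 on the other 6 arrays, a difference of 1.01 between the means of the IBM1 knockout and WT. The double knockout arrays read 2.73 and 2.71 there.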

How the results depend on the processing

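Of the calls between double and IBM1 knockout, 55 in all, 23 were kept among the 25 called after quantile normalization on top, 30 among the 38 after centring arrays on their medians and 39 among the 63 of limma-trend. A filter to a highest group mean of at least 5 left 7286 probe sets and 6 calls, the test against a difference of 0.5 (treat) called 6, 1 probe set per named gene gave 34, and a size of at least 1 with no overlap gave 275. The fit to the 4 arrays alone, the replicate block and the removal of JMJ24 knockout replicate 1 with double knockout replicate 2 (chosen after seeing the data) each gave 0. For the interaction, 3 in the report, quantile normalization, the filter, the replicate block and that joint removal each gave 0, and limma-trend gave 10. Leaving out 1 array gave 0 to 161 calls between double and IBM1 knockout, 0 to 68 for the interaction, and 0 to 10 on the gene lists, which held 8; the calls stood at 0 without either double knockout array. At these counts of 0, limma left 2011 to 3605 probe sets at an unadjusted p under 0.05 between double and IBM1 knockout and 738 to 2840 for the interaction. Removing an array leaves its genotype with 1 sample, assumed to vary like the others, and the cause of each change was not tested. Among single genes, AT1G03890 changed sign, ranging from −2.59 to 0.025 as single arrays were left out and lying at the upper end without IBM1 knockout replicate 2. With values near background set to the quartile, 31 of the 32 named calls remained. Low signal limits the 9 falls whose double knockout level was near background and 1 rise from such a level.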
